A study of Mus musculus with 8 samples.

Results

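Amino acids, among them leucine and arginine, are reported to the growth-controlling kinase complex mTORC1 by a short chain of proteins. Here 10 genes of that chain were followed. They were the sestrins Sesn1, Sesn2 and Sesn3, Castor1 and Castor2, Sar1b, the GATOR1 subunits Depdc5, Nprl2 and Nprl3, and the GATOR2 subunit Mios. The genes were chosen by symbol as amino acid sensors and GATOR subunits upstream of mTORC1, and all 10 were found among the 27179 genes of the deposited count table. All 10 also passed the filter on low counts, which left 13364 genes in the test.

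The RNA came from MLL-AF9 acute myeloid leukaemia cells, a mouse leukaemia driven by a fusion oncogene, labelled as wild type and carrying GFP and luciferase. Cells of a single leukaemia, expanded in culture, were injected into the veins of male mice aged 8 to 10 weeks that had not been preconditioned, so the hosts kept their own blood formation. The groups compared were 3 libraries (labelled BCAA) from mice whose diet lacked the branched-chain amino acids leucine, isoleucine and valine, and 5 libraries (labelled AA) from mice on a diet with the standard amino acids. The labels give the first group only as BCAA, and the series title and stated design identify that diet as the one free of BCAA. Every mouse in both groups had received 5+3 chemotherapy, cytarabine at 100 mg/kg daily for 5 days and doxorubicin at 3 mg/kg daily for the first 3 days, and living GFP-positive cells were sorted from the bone marrow at the point of strongest response. The labels call the libraries biological replicates without naming animals or batches.

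The roles of these proteins were worked out largely in human cells. GATOR1 keeps the Rag GTPases at the lysosome in their inactive state and so holds mTORC1 off, and GATOR2 opposes GATOR1. Sestrin 1 and sestrin 2 bind leucine. Without leucine they attach to GATOR2 and keep mTORC1 low. SAR1B acts on GATOR2 in a similar way, and CASTOR1 does the same for arginine.

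In the RefSeq annotation of GRCm38.p6 the sestrin genes lie at chr10:41810574-41908436 (plus strand) for Sesn1, chr4:132492804-132510456 (minus strand) for Sesn2 and chr9:14276301-14326134 (plus strand) for Sesn3. Castor1 lies at chr11:4218166-4222409 (plus strand), Castor2 at chr5:134099748-134141782 (plus strand) and Sar1b at chr11:51763663-51791953 (plus strand). The GATOR genes lie at chr5:32863646-32994233 (plus strand) for Depdc5, chr9:107542177-107545706 (plus strand) for Nprl2, chr11:32231963-32267707 (minus strand) for Nprl3 and chr6:8209111-8240573 (plus strand) for Mios.

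Library totals were between 14851240 and 30306697 counts on the BCAA-free diet and between 16588662 and 38966911 on the standard diet (two-sided exact permutation test p = 0.857, smallest possible value 0.0357). Summed markers fixed for the sorted population and for other marrow cells stood apart between the groups in some lists and overlapped in others. The T cell, neutrophil, erythroid, megakaryocyte and natural killer sums overlapped, and edgeR called none of their tested genes. The summed level of 7 leukaemia and myeloid progenitor markers, most of it from the granule enzyme gene Mpo, was 7156 to 8155 CPM (counts scaled to library size and composition) on the BCAA-free diet and 9089 to 11408 CPM on the standard diet, with no overlap. Mpo alone was at 5814 to 6967 CPM on the BCAA-free diet and 7623 to 10004 CPM on the standard diet, while Hoxa9, Meis1 and Kit overlapped between the groups. None of these 7 passed the test in edgeR, and 2 had an unadjusted p under 0.05. The 5 B cell markers summed to 25.4 to 99.0 CPM on the BCAA-free diet and 8.14 to 15.3 CPM on the standard diet, and 3 of the 4 tested were called higher, Cd79a and Cd79b among them. The 5 T cell markers summed to 3.47 to 25.5 CPM and 1.82 to 4.84 CPM in the same order, with a count of 0 for Cd4 in at least 1 library. The 5 endothelial and stromal markers summed to 14.7 to 43.9 CPM and 2.61 to 9.49 CPM, with Cxcl12 called higher. The 6 macrophage markers summed to 212 to 285 CPM on the BCAA-free diet and 287 to 394 CPM on the standard diet, with no overlap. Of these 6, Cd163 was called higher (edgeR adjusted p = 0.0450). All 6 had an unadjusted p under 0.05 in edgeR, 4 higher (C1qa, C1qb, C1qc and Cd163) and 2 lower. The 2 lower, Vcam1 and Adgre1, made up most of the sum. BCAA-free replicate 2 had the highest level of all 5 B cell, all 5 T cell and all 5 neutrophil markers among the 8 libraries. In such bulk samples fewer cells of a type cannot be told apart from less RNA per cell.

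None of the 10 genes changed between the diets by edgeR's quasi-likelihood test with Benjamini-Hochberg adjustment over all tested genes at a threshold of 0.05. Over all tested genes edgeR called 0.756% (0.217% higher and 0.539% lower), DESeq2 2.71% and limma-voom 0.479%. DESeq2 and limma-voom called 0 of 10 as well. At an unadjusted p under 0.05 there were 3 of 10 in edgeR (Sesn2, Sesn3 and Castor1, all with higher means on the BCAA-free diet), 3 of 10 in DESeq2 and 2 of 10 in limma-voom, against 13.5% of all genes in edgeR, of which 6.21% of all genes were higher. The median log2 fold change of the 10 genes was -0.03, beside 0.02 over all genes tested. In none of the 10 did the CPM of the 2 groups stand fully apart, against 8.84% of all tested genes (4.17% higher and 4.68% lower).

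**Figure D1:**
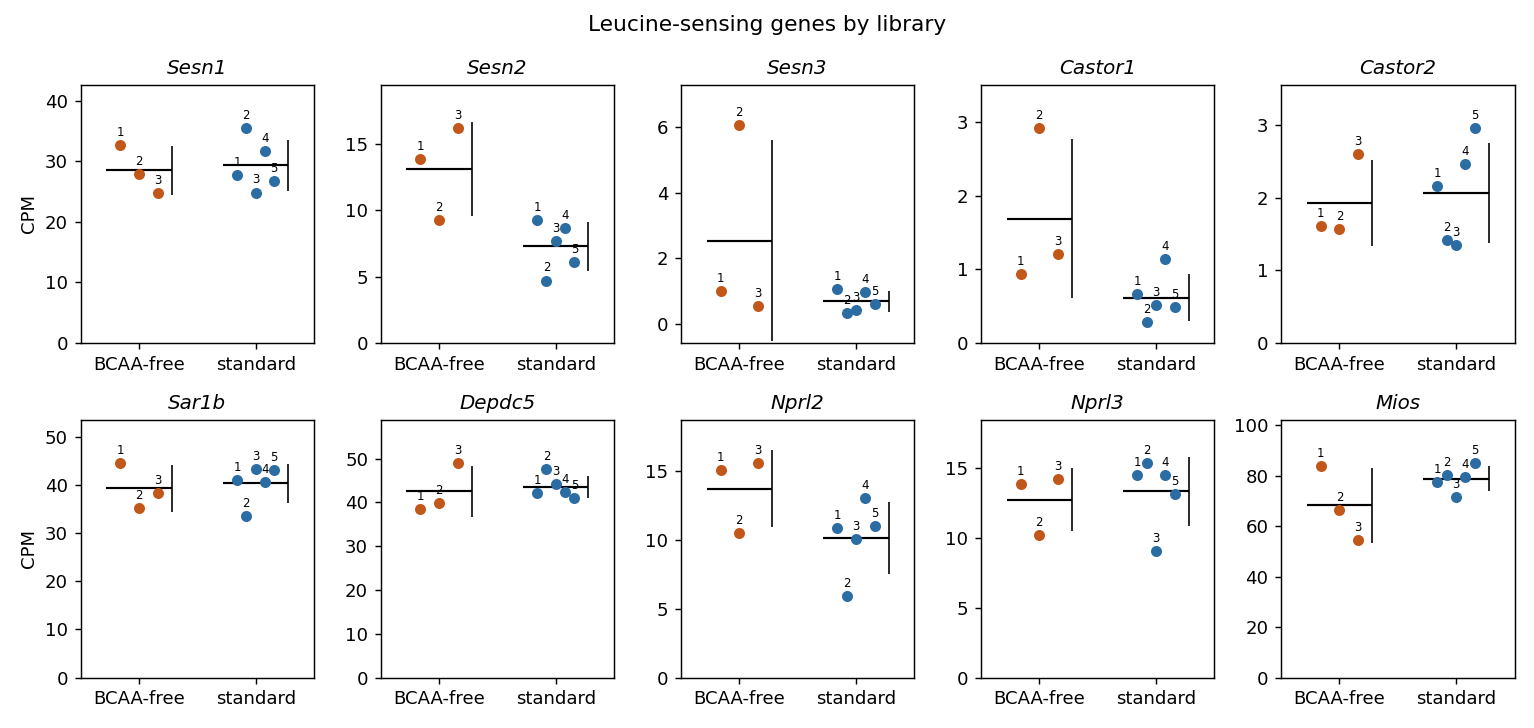
Level of each gene in every library, in CPM, with the BCAA-free diet (n = 3) left of the standard diet (n = 5). Points are libraries numbered by replicate, horizontal lines are group means and vertical lines span 1 SD on each side. Sesn3 and Castor1 had their highest values, 6.07 and 2.93 CPM, in BCAA-free replicate 2, and the groups overlapped for every gene.

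Sesn2 had the smallest p of the 10 genes. It encodes the leucine-binding sestrin whose gene is known to respond to p53, ATF4 and NRF2 under stress. It was at 13.9, 9.26 and 16.2 CPM on the BCAA-free diet, against 9.29, 4.71, 7.66, 8.64 and 6.11 CPM on the standard diet. The lowest BCAA-free library lay just under the highest standard-diet library, and the other 2 lay above all 5. The means were 13.1 ± 3.54 CPM (SD, n = 3) on the BCAA-free diet and 7.28 ± 1.87 CPM (SD, n = 5) on the standard diet. The fitted log2 fold change was 0.85 (SE 0.25, 95% interval 0.31 to 1.38), with an unadjusted p of 0.00415 and an adjusted p of 0.147 in edgeR's test. The interval runs from 1.24-fold to 2.61-fold. Over the alternative settings the log2 fold change of Sesn2 stayed between 0.66 and 1.04, and its adjusted p between 0.0591 (DESeq2) and 0.516.

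The Sesn2 transcript has a GC content of 58.7%, the highest of the 10. The libraries differed in the level of GC-rich genes relative to GC-poor genes. The median log2 deviation of genes with a transcript GC content above 54.2% minus that of genes below 44.7% was 0.03, 0.03 and 0.44 in BCAA-free replicates 1, 2 and 3. It was 0.23, -0.11, -0.25, -0.04 and -0.29 in standard-diet replicates 1 to 5. The library with the highest Sesn2 level, BCAA-free replicate 3, was also the one with the strongest GC lean. Standard-diet replicate 1, with a lean of 0.23, had the highest lean and the highest Sesn2 level of its group, 9.29 CPM. BCAA-free replicates 1 and 2, each with a lean of 0.03, had Sesn2 at 13.9 and 9.26 CPM. The lean was above 0 in every BCAA-free library and below 0 in standard-diet replicates 2 to 5. Diet and lean therefore cannot be told apart in these libraries. The cause of the lean, and its part in the Sesn2 level, were not tested. With trends of GC content and length removed, an alternative chosen after seeing the data, the log2 fold change of Sesn2 was 0.71 (SE 0.23, adjusted p = 0.184 in edgeR's test).

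Sesn1, a sestrin gene known as a p53 and FoxO target, had nearly equal means on the 2 diets. It was at 32.7, 28.0 and 24.8 CPM on the BCAA-free diet, against 27.7, 35.5, 24.8, 31.7 and 26.8 CPM on the standard diet. The ranges were nearly the same in both groups. Means were 28.5 ± 4.00 CPM (SD, n = 3) on the BCAA-free diet and 29.3 ± 4.28 CPM (SD, n = 5) on the standard diet. The log2 fold change was -0.04 (SE 0.16, edgeR adjusted p = 0.936), and its 95% interval reached from 0.772-fold to 1.22-fold.

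Sesn3, the third sestrin and a FoxO target that binds leucine poorly if at all, was rare in these cells, with 6 to 112 counts per library. It was at 1.01, 6.07 and 0.541 CPM on the BCAA-free diet, against 1.07, 0.340, 0.437, 0.960 and 0.605 CPM on the standard diet. A single library, BCAA-free replicate 2, stood above the rest, and the other 2 BCAA-free libraries lay within the standard-diet range. The fitted log2 fold change was 1.87 (SE 0.73, 95% interval 0.33 to 3.40, edgeR adjusted p = 0.281). In limma-voom it was 0.88 (adjusted p = 0.660). Without BCAA-free replicate 2 it was 0.14 in edgeR (SE 0.81, adjusted p = 0.959), with an interval from -1.58 to 1.86. The same library had the most B and T cell marker RNA, a summed 124 CPM, against 42.8 and 28.9 CPM in BCAA-free replicates 1 and 3 and 10.3 to 20.0 CPM on the standard diet. It also had the highest level of all 5 neutrophil markers. The part of any of those cells in the Sesn3 value was not tested.

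The stretches before the transcription starts of the sestrin genes are shown because the 3 paralogs differed so much in level, and Castor1 is added as the other gene with its highest value in BCAA-free replicate 2. Each is the 250 bases before a transcription start in the RefSeq promoter table of GRCm38.p6, which for Castor1, Depdc5, Mios, Nprl2 and the second Sesn1 start lies inside the gene span given above, on the gene's strand from 5′ to 3′, at chr10:41810324-41810573 (plus strand) for the first of 2 Sesn1 starts, chr4:132510457-132510706 (minus) for Sesn2, chr9:14276051-14276300 (plus) for Sesn3 and chr11:4217975-4218224 (plus) for Castor1. Capitals mark matches to 6 motifs searched on both strands, which are TGATGNAAN (ATF4 with C/EBP), TGTTTAC (FoxO), TGACNNNGC (the core of the antioxidant response element), CACGTG (the TFEB E-box), GGGCGG (GC box) and CCAAT.
Sesn1: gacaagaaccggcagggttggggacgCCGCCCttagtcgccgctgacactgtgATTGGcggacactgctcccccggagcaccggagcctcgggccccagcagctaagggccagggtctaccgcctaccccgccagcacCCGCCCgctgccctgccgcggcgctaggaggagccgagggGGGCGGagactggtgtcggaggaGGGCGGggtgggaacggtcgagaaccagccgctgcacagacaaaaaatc
Sesn2: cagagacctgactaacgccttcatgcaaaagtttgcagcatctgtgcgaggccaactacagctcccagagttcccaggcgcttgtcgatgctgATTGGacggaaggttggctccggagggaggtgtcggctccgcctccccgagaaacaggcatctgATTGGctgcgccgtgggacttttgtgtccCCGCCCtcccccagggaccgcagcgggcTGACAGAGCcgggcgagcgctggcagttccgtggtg
Sesn3: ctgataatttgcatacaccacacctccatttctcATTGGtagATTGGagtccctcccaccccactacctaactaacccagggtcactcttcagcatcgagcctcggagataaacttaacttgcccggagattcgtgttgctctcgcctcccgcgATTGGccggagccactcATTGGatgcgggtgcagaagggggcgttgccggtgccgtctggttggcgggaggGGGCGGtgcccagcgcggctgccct
Castor1: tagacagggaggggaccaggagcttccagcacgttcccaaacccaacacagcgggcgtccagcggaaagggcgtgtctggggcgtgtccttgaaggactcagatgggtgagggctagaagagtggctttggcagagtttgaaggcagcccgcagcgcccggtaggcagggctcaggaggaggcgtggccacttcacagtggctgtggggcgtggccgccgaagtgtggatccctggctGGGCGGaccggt
Sesn2 held the 1 antioxidant response element core found in the 11 windows of the 10 genes, TGACAGAGC, which begins 36 bases before its start. That core is in 10.2% of 32851 such windows in RefSeq. None of the 11 windows held the ATF4 motif, the FoxO motif or the TFEB E-box, which are in 3.44%, 3.17% and 6.02% of all windows. A GC box was in 8 of the 11 windows and a CCAAT box in 6, against 32.7% and 33.8% of all windows. The Sesn3 window held 4 CCAAT boxes on its minus strand and the Castor1 window 1 GC box, close to the start. GC content of the windows ran from 47.2% for Nprl3 to 71.2% for the second Sesn1 start, beside a median of 52.4% over all windows. A match is a run of letters and does not show a bound site.

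Levels of different genes were compared as CPM per kilobase of the longest annotated transcript. On this scale Sesn1 was the main sestrin in all 8 libraries, at 7.48 ± 1.05 on the BCAA-free diet (SD, n = 3) and 7.70 ± 1.12 on the standard diet (SD, n = 5). Sesn2 was at 3.78 ± 1.02 and 2.10 ± 0.539 in the same order, and Sesn3 at 0.278 ± 0.336 and 0.0748 ± 0.0351. Of the summed length-scaled sestrin level, Sesn1 made up 67.7%, 68.8% and 57.9% on the BCAA-free diet. It made up 72.3%, 87.0%, 74.3%, 76.3% and 79.4% on the standard diet. These Sesn1 shares did not overlap between the diets, whereas the CPM of Sesn1 and that of Sesn2 did. How often shares of this kind stand apart for other genes was not examined. The Sesn2 share was 31.5%, 25.0% and 41.6% on the BCAA-free diet, against 26.6%, 12.6%, 25.1%, 22.8% and 19.8% on the standard diet. The Sesn3 share was 6.23% in BCAA-free replicate 2, and at most 1.16% in the other 7 libraries. These shares move together by construction and were not tested.

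**Figure D2:**
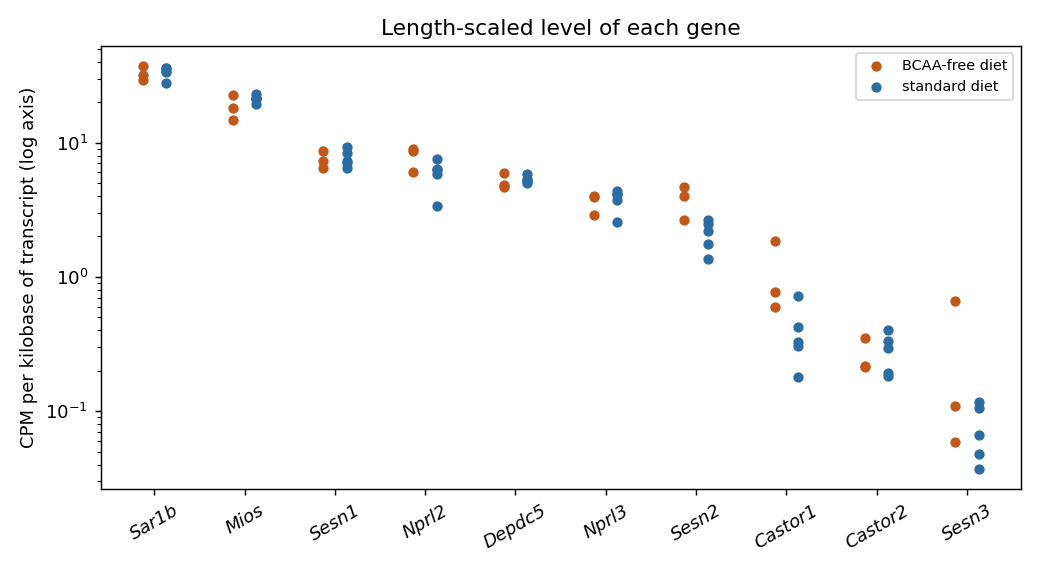
CPM per kilobase of the longest transcript (log axis) of each gene, ordered by the standard-diet mean. Points are libraries, with the BCAA-free diet (n = 3) left of the standard diet (n = 5). Sar1b and Mios stand highest, at 33.5 and 21.3 on the standard diet, and Sesn3 lowest, at 0.0748.

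The order of all 10 genes on that scale was Sar1b, Mios, Sesn1, Nprl2, Depdc5, Nprl3, Sesn2, Castor1, Castor2 and Sesn3 on the standard diet. The ranges of mean ± SD of neighbours overlapped for Sesn1 and Nprl2, for Nprl2 and Depdc5, and for Castor1 and Castor2, and were apart elsewhere. On the BCAA-free diet Nprl2 stood above Sesn1, Sesn2 above Nprl3 and Sesn3 above Castor2, and the ranges overlapped within each of these pairs as well as for Depdc5 and Sesn2 and for Castor1 and Sesn3. Among tested genes with a length, the standard-diet mean of Sar1b lay at percentile 81.6 and that of Mios at 70.5. Castor1 lay at percentile 8.70, Castor2 at 6.28 and Sesn3 at 0.636. The most abundant sensor genes were Sar1b and Sesn1.

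Castor1, the arginine sensor, also had its highest value in BCAA-free replicate 2. It was at 0.939, 2.93 and 1.21 CPM on the BCAA-free diet, against 0.662, 0.284, 0.516, 1.14 and 0.484 CPM on the standard diet, from 5 to 54 counts per library. BCAA-free replicate 2 was the highest, replicate 3 lay just above the standard-diet range and replicate 1 within it. The log2 fold change was 1.45 (SE 0.65, 95% interval 0.08 to 2.82, edgeR adjusted p = 0.341). Without BCAA-free replicate 2 it was 0.79 (SE 0.76, adjusted p = 0.731). That library had the most B and T cell marker RNA and also the highest level of all 5 neutrophil markers. The part of any of these cells in the Castor1 value was not tested. Castor2, its paralog and binding partner, was at 1.61, 1.57 and 2.61 CPM on the BCAA-free diet, against 2.16, 1.42, 1.35, 2.46 and 2.96 CPM on the standard diet. The groups lay over each other, with a log2 fold change of -0.09 (SE 0.46, edgeR adjusted p = 0.957). Its 95% interval was wide, from 0.479-fold to 1.85-fold.

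**Figure D3:**
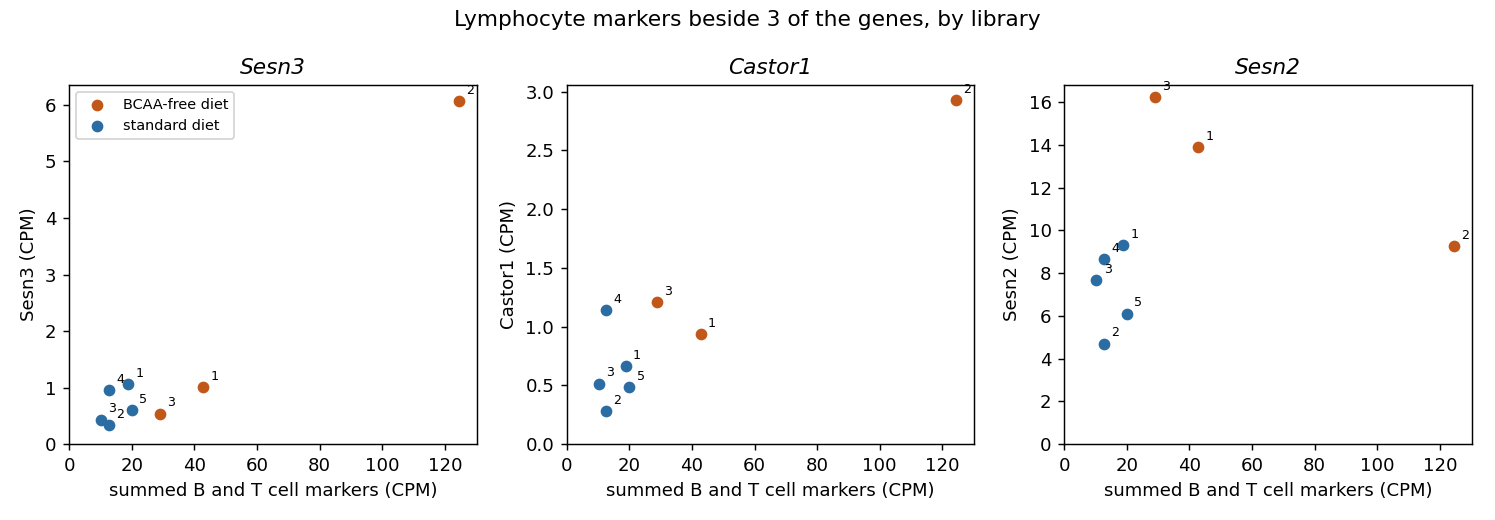
Level of Sesn3, Castor1 and Sesn2 (vertical axes, CPM) against the summed CPM of 5 B cell and 5 T cell markers (horizontal axes), with 1 point per library numbered by replicate, BCAA-free diet (n = 3) in orange and standard diet (n = 5) in blue. BCAA-free replicate 2, at 124 CPM of markers, has the highest Sesn3 and Castor1 but the lowest Sesn2 of its group.

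Sar1b encodes a small GTPase of vesicle export from the endoplasmic reticulum that also senses leucine in human cells. It was at 44.6, 35.1 and 38.2 CPM on the BCAA-free diet, against 41.1, 33.5, 43.3, 40.5 and 43.1 CPM on the standard diet. The groups covered the same range. The log2 fold change was -0.04 (SE 0.14, edgeR adjusted p = 0.936), with an interval from 0.799-fold to 1.19-fold. Its close relative Sar1a, which is not one of the 10, was at 159 ± 11.4 CPM (SD, n = 3) on the BCAA-free diet and 148 ± 17.7 CPM (SD, n = 5) on the standard diet (edgeR adjusted p = 0.725). No run of 38 bases, the read length, is shared between the longest Sar1b transcript and any other annotated gene.

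Among the GATOR1 genes, Depdc5, the subunit that contacts the Rag GTPases, was the steadiest. It was at 38.6, 39.8 and 49.1 CPM on the BCAA-free diet, against 42.2, 47.7, 44.2, 42.4 and 41.0 CPM on the standard diet. The groups overlapped over most of their range. The fit gave a log2 fold change of -0.03 (SE 0.13, edgeR adjusted p = 0.942), with an interval from 0.812-fold to 1.18-fold. Its coefficient of variation on the standard diet was 5.95%, beside a median of 12.1% over tested genes whose mean there reached 10 CPM.

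Nprl2 encodes the subunit with the catalytic residue of GATOR1. It was at 15.1, 10.5 and 15.6 CPM on the BCAA-free diet, against 10.8, 5.90, 10.1, 13.0 and 11.0 CPM on the standard diet. Replicates 1 and 3 on the BCAA-free diet were above all standard-diet libraries and replicate 2 was within their range. The fit gave a log2 fold change of 0.43 (SE 0.24, 95% interval -0.07 to 0.94, edgeR adjusted p = 0.451). Without BCAA-free replicate 2 it was 0.59 (SE 0.26, adjusted p = 0.417). Nprl2 followed Sesn2 across the libraries more closely than any other pair of the 10 genes did, with a Pearson correlation of log2 CPM of 0.88 over 8 libraries. Sesn3 and Castor1 came next at 0.86. Among genes with a symbol whose mean reached 1 CPM, 115 had a correlation of at least 0.90 with Sesn2. Both genes of a pair share the depth and base composition of each library.

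Nprl3, the scaffold subunit of GATOR1, lies beside the alpha-globin genes, whose enhancers sit in its introns. It was at 13.8, 10.2 and 14.2 CPM on the BCAA-free diet, against 14.5, 15.4, 9.09, 14.5 and 13.1 CPM on the standard diet. Each group had 1 library near 10 CPM or below and the rest between 13 and 16. Its log2 fold change was -0.06 (SE 0.21, edgeR adjusted p = 0.933), and the interval ran from 0.704-fold to 1.30-fold. Exons of Nprl3 and of the DNA glycosylase gene Mpg on the opposite strand overlap by 1340 bases, and 1092 of the 3494 runs of 38 bases in the longest Nprl3 transcript (31.3%) also occur in Mpg. No source used here gives the strand setting of the counting, and reads of the 2 genes cannot be told apart without it. For the other 9 genes at most 0.286% of such runs occurred in another gene.

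Mios, a subunit of GATOR2 with the highest CPM per kilobase of the 4 GATOR genes among the 10, was at 83.7, 66.6 and 54.5 CPM on the BCAA-free diet. It was at 77.7, 80.3, 71.6, 79.7 and 85.2 CPM on the standard diet. BCAA-free replicates 2 and 3 were below all standard-diet libraries and replicate 1 was among them. Means were 68.2 ± 14.7 CPM (SD, n = 3) on the BCAA-free diet and 78.9 ± 4.94 CPM (SD, n = 5) on the standard diet. The log2 fold change was -0.21 (SE 0.13, 95% interval -0.49 to 0.07, edgeR adjusted p = 0.510). Leaving out BCAA-free replicate 3 gave -0.07, and leaving out BCAA-free replicate 1 gave -0.38 (adjusted p = 0.210). Mios has the lowest transcript GC content of the 10 after Sar1b, 43.9%, and with GC and length trends removed its log2 fold change was -0.12 (adjusted p = 0.681).

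**Figure D4:**
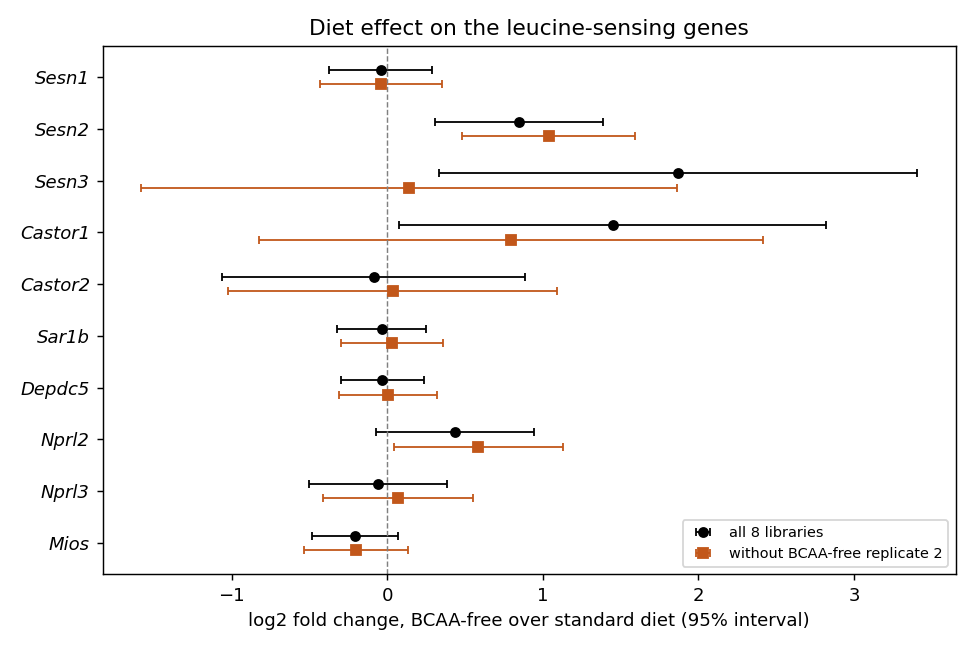
Fitted log2 fold change of each gene, BCAA-free over standard diet, with its 95% interval from edgeR's test, for all 8 libraries (black circles, 3 against 5) and without BCAA-free replicate 2 (orange squares, 2 against 5). Sesn3 moves to 0.14 and Castor1 to 0.79 without that library, while Sesn2 moves to 1.04.

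The other genes of the pathway showed no called change either. Of 37 genes listed in the remaining complexes 36 were tested, and edgeR called 0, limma-voom 0 and DESeq2 1, with 5 at an unadjusted p under 0.05 in edgeR. Of all tested genes, 13.5% had such an unadjusted p, and the shares called were 0.756% in edgeR, 0.479% in limma-voom and 2.71% in DESeq2. Their median log2 fold change was 0.02, the same as over all tested genes to that precision, and 21 were positive and 15 negative. Akt1s1, which encodes the mTORC1 inhibitor PRAS40, was at 27.0 ± 1.67 CPM (SD, n = 3) on the BCAA-free diet and 18.7 ± 2.55 CPM (SD, n = 5) on the standard diet (log2 fold change 0.53, SE 0.15, edgeR adjusted p = 0.128). DESeq2 called it, with an adjusted p of 0.0481.

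The folliculin complex, which acts on RagC, had no called gene. Flcn was at 72.1 ± 6.45 CPM (SD, n = 3) on the BCAA-free diet and 59.3 ± 4.01 CPM (SD, n = 5) on the standard diet (log2 fold change 0.28, edgeR adjusted p = 0.288). Its partner Fnip1 was at 121 ± 9.18 CPM (SD, n = 3) on the BCAA-free diet and 156 ± 26.8 CPM (SD, n = 5) on the standard diet (log2 fold change -0.36, edgeR adjusted p = 0.232). The Ragulator scaffold genes Lamtor5 and Lamtor1 had log2 fold changes of 0.33 and 0.11. The groups stood fully apart in CPM for Akt1s1, Flcn, Fnip1, Lamtor5 and the GATOR2 gene Wdr59 (log2 fold change 0.43, edgeR adjusted p = 0.332), which is 5 of 36 genes beside 8.84% of all tested genes. For Mios's partner Seh1l the log2 fold change was -0.18, and for the KICSTOR gene Kptn it was -0.29.

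Elsewhere in the pathway no named gene passed the test. Mtor itself had a log2 fold change of 0.12 (edgeR adjusted p = 0.697), and Rheb, the GTPase that activates it, -0.19 (0.494). Tbc1d7, a subunit of the TSC complex, had -0.26 (0.614). Bmt2, the S-adenosylmethionine sensor SAMTOR, had -0.30 (0.503), and Lars, the leucyl-tRNA synthetase, 0.02 (0.957). Of the ubiquitin ligase genes, Rnf167, whose product modifies sestrin 2 in human cells, had -0.08 (0.885). Rnf152, which acts on RagA, was near the detection limit at 0.288 ± 0.134 CPM (SD, n = 3) on the BCAA-free diet and 0.754 ± 0.292 CPM (SD, n = 5) on the standard diet (log2 fold change -1.33, SE 0.79, edgeR adjusted p = 0.485).

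**Figure D5:**
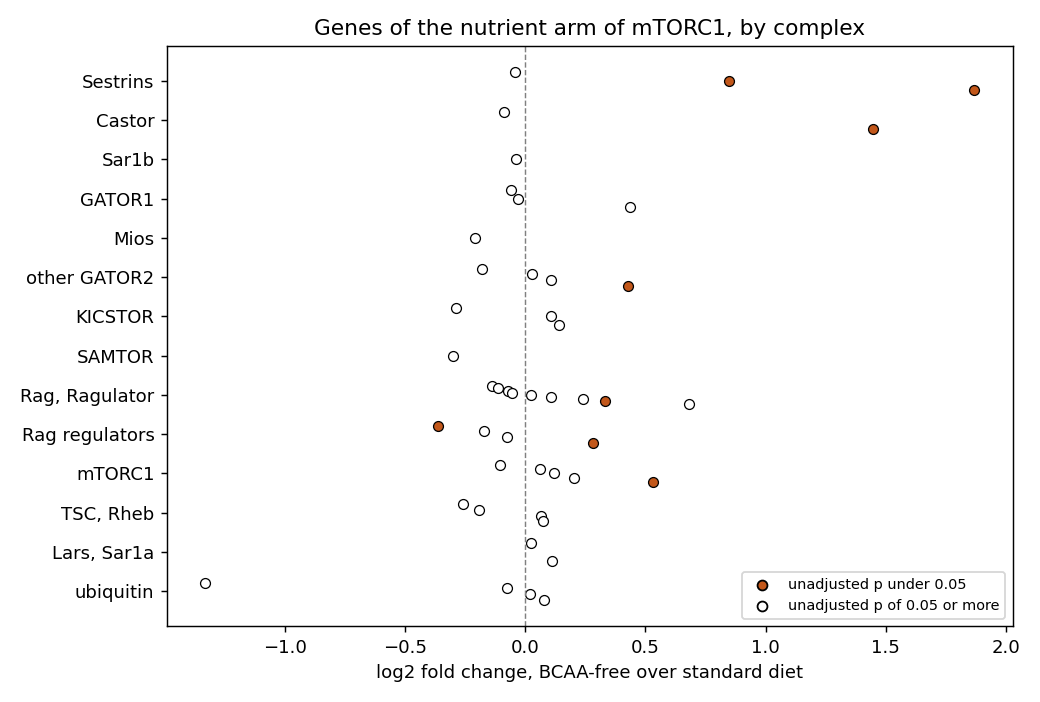
Log2 fold change of every tested gene of the pathway, BCAA-free (n = 3) over standard diet (n = 5), by complex from edgeR's test. Filled points have an unadjusted p under 0.05, and none passed after adjustment. The 3 filled points among the sestrins and Castor are Sesn2, Castor1 and Sesn3, at 0.85, 1.45 and 1.87.

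The sestrins are known targets of p53, ATF4, NRF2 and the FoxO factors, and these regulators and some of their other targets were examined beside them. Of 38 listed genes 37 were tested. edgeR called 1, higher on the BCAA-free diet, limma-voom 1 and DESeq2 6, with 10 at an unadjusted p under 0.05 in edgeR, all of them higher. Over all tested genes the shares were 0.756% in edgeR, 0.479% in limma-voom, 2.71% in DESeq2 and 6.21% higher at an unadjusted p under 0.05. The median log2 fold change was 0.25. The called gene was the ATF4 target Phgdh, which makes serine, at 38.2 ± 6.05 CPM (SD, n = 3) on the BCAA-free diet and 17.0 ± 5.38 CPM (SD, n = 5) on the standard diet (log2 fold change 1.16, SE 0.23, edgeR adjusted p = 0.0281). It lost the call without BCAA-free replicate 1 (0.104), BCAA-free replicate 2 (0.0878) or standard-diet replicate 5 (0.0728). Of the 11 tested p53 targets, all had a positive log2 fold change, beside 7026 of all 13364 tested genes. None of the 11 passed in edgeR and 4 had an unadjusted p under 0.05. Zmat3 and Bax had the smallest p (log2 fold change 0.99 and 0.51, edgeR adjusted p = 0.0898 and 0.118). Sesn1, known as a p53 target too, was at -0.04, and Sesn2, also known to respond to p53, at 0.85. Among the regulators Foxo1 was at 9.09 ± 1.95 CPM (SD, n = 3) on the BCAA-free diet and 4.14 ± 0.852 CPM (SD, n = 5) on the standard diet (log2 fold change 1.14, edgeR adjusted p = 0.0610), and Foxo3 had a log2 fold change of 0.48 (0.257). DESeq2 called Foxo1 (0.00687), and it also called Zmat3, Bax, Ddit4 and Il7r beside Phgdh. Foxo1 is also abundant in lymphocytes. Foxo1 was at 10.1, 10.3 and 6.84 CPM on the BCAA-free diet and 3.10 to 5.16 CPM on the standard diet. The groups stood fully apart, as in 5 of the 37 tested genes of these lists, beside 8.84% of all tested genes. Summed B and T cell markers were, in the same order, 42.8, 124 and 28.9 CPM, and 10.3 to 20.0 CPM. The part of B and T cells in the Foxo1 value was not tested. The FoxO targets Il7r, a lymphocyte receptor, and Insr had log2 fold changes of 2.40 (0.0822) and -0.24 (0.412). Il7r was at 6.51, 16.9 and 2.35 CPM on the BCAA-free diet and 0.480 to 3.20 CPM on the standard diet. Its log2 fold change was 1.43 without BCAA-free replicate 2 (edgeR adjusted p = 0.369), and it was called without BCAA-free replicate 3 (0.00868).

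The genes most like 4 of the sensors were sought by the Pearson correlation of log2 CPM over the 8 libraries. The mean reached 1 CPM in 12242 genes, and those of them without a symbol were left out of the ranking and the counts. For Sesn2 they were Cd320, Mif, Adrm1, Iah1 and Rpl36, with correlations of 0.98 to 0.97, and 115 genes reached 0.90. For Sesn3 they were Sh3bp5, Itgax, Ablim1, Dpp4 and 5031439G07Rik, with correlations of 0.97 to 0.93. Ablim1 was at 28.2 CPM and Dpp4 at 12.0 CPM in BCAA-free replicate 2, against at most 6.51 and 3.15 CPM in the other BCAA-free libraries and at most 4.68 and 2.12 CPM on the standard diet. For Castor1 they were Atp8b2, Ehhadh, Tmem268, Unc119b and Tsen34, with correlations of 0.97 to 0.94. For Sesn1 they were Gm10336, Plekhg6, Zfp955b, Slc35b3 and Atp10d, with correlations of 0.91 to 0.89, and 3 genes reached 0.90. Both genes of a pair were measured in the same libraries, which differ in depth and base composition. These correlations describe the 8 libraries only.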

How the data were processed

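RNA-seq counts per gene were deposited by the authors as 1 table of 8 libraries without normalization. The labels' protocols give polyadenylated RNA, the Kapa mRNA HyperPrep kit and paired reads of 38 bases, and the submitters' processing notes list mm10, featureCounts and Cell Ranger, with no role. Not given in the sources used here are the aligner, the strand setting and the handling of multiply mapping reads. Symbols came from RefSeq (GRCm38.p6), which matched 25275 of 27179 identifiers, lengths, GC content and overlaps from GENCODE vM21, and promoter windows from RefSeq. Kics2 found no match and was not analysed here.

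The test was edgeR 4.0.16's quasi-likelihood F test (robust, TMM factors, minimum count 10 and total 15, diet as the only term) in R 4.3.3 over all 8 libraries and 13364 genes. A standard error is the log2 fold change over the square root of F. Alternatives used DESeq2 1.42.0, limma-voom (limma 3.58.1), other filters and size factors, each library left out, and a replicate block. The fit was also run on counts simulated from its own model and fitted dispersions. Such counts cannot show its behaviour where the data depart from that model. Between libraries of a group, chi-square over its degrees of freedom was 20.3 to 66.0, beyond counting noise, and none was counted as a repeat. Correlations used a pseudocount of 0.1 CPM. P-values weigh the difference between the diets against the spread between libraries. The cells came from a single leukaemia, so that spread does not cover differences between leukaemias. The labels name no separate cultures or animals.

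Members, gene lists and tests were chosen with earlier results of these data known. All 10 members were named, pathway and driver genes where called, otherwise the 2 with the smallest p per list, and the 5 most alike genes for Sesn1, Sesn2, Sesn3 and Castor1. Some genes that this rule or the lists would name are not reported here.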

Additional observations from a re-analysis of the deposited data

Results flagged for a closer look

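In 3 of 47 sets of 5 standard-diet values, 1 library lay farther from the others than Dixon's 95% limit of 0.71 of the range allows, and chance alone flags about 1 in 20 such sets. Sar1b was at 33.5 CPM in standard-diet replicate 2, against 40.5 to 43.3 CPM in the other 4, a gap of 0.714 of the range. Flcn was at 52.2 CPM in standard-diet replicate 3, against 60.1 to 61.8 CPM in the other 4 (0.828). The summed natural killer cell markers were at 4.90 CPM in standard-diet replicate 5, against 0.720 to 1.23 CPM in the other 4 (0.878). Groups of 3, and so the BCAA-free libraries, were not examined in this way.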

How the results depend on the processing

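No alternative called any of the 10 genes, and Sesn2, Sesn3, Castor1, Nprl2 and Mios kept the direction of their fold changes in all 17 alternatives. The other signs turned at values near 0, except that Castor2 reached 0.23 in the 2 fits on 6 libraries. With single libraries left out, log2 fold changes ran from -0.15 to 0.047 for Sesn1, -0.38 to 0.072 for Castor2, -0.14 to 0.029 for Sar1b, -0.15 to 0.032 for Depdc5, -0.17 to 0.067 for Nprl3, -0.11 to 0.11 for Lars and -0.19 to 0.043 for Rnf167. Castor2 was at 0.058 in limma-voom, and Sar1b at 0.047 with GC and length trends removed.

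The count of genes called in the whole table was 101 in the reported test. It was 64 in limma-voom, 237 without a filter for low counts, 378 in DESeq2, 159 with GC and length trends removed and 32 to 134 with single libraries left out. The 101 were 29 higher and 72 lower. Leaving out BCAA-free replicate 2 gave 32 (3 higher, 29 lower), BCAA-free replicate 3 gave 134 (78 higher, 56 lower) and BCAA-free replicate 1 gave 52. Leaving out standard-diet replicate 2, 4 or 5 gave 52, 55 and 53. Pathway genes called were 1 in DESeq2. Driver genes called were 1 in the reported test, 6 in DESeq2, 2 with no filter, 3 with GC and length trends removed and 0 to 4 with single libraries left out. The cause of these moves was not tested.

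Same-numbered libraries did not deviate together (correlations -0.08, -0.05 and -0.30), so the numbers were not taken as pairs. A fit with the replicate number as a block, on the 6 libraries with numbers 1 to 3, called 0 genes, with 904 at an unadjusted p under 0.05, and 0 driver genes. Without the block these 6 libraries gave 19 calls and 0 driver genes. In these 2 fits, block first, Castor2 was at 0.23 and 0.23, and with the block Sar1b was at 0.0013. Depth limits Sesn3, Castor1 and Castor2 most, at 5 to 112 counts per library.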
